A study of Mus musculus with 4 samples.

Results

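D-type cyclins and CDK inhibitors set whether a cell passes from G1 into S phase, and 7 of these genes were followed over 4 mouse cell populations that lead from mesodermal precursors to cardiomyocytes. The genes were the cyclins Ccnd1 (NM_007631) and Ccnd2 (NM_009829), the CIP/KIP inhibitors Cdkn1a (NM_007669), Cdkn1b (NM_009875) and Cdkn1c (NM_009876), and Cdkn2a (NM_009877) and Cdkn2b (NM_007670) of the INK4 gene family. They were taken by identifier, as every probe whose transcript identifier equalled one of these. They are 7 of the 20885 genes that could be named on the array, and had 9 of its 39429 unique probes, with 2 different probes each for Cdkn2a and Cdkn2b and 1 for each other gene.

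D-type cyclins bind and activate CDK4 and CDK6, which phosphorylate the retinoblastoma protein and its relatives and so release E2F transcription factors. INK4 proteins bind CDK4 and CDK6 and keep the D cyclins off them, while CIP/KIP proteins bind cyclin and CDK complexes as a whole and block those of CDK2. In the heart these genes are known for the withdrawal of cardiomyocytes from the cell cycle, and D cyclins are highly expressed in dividing embryonic muscle precursors.

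The populations were Flk1+ MPC (mesodermal precursor cells, day 4.5), sfPCB (spontaneously formed PCB, day 5.5), PCB (PDGFRα+ cardioblasts, day 5.5) and M+CM (αMHC+ cardiomyocytes, day 10.5). Cells were sorted by flow cytometry, and their total RNA was hybridized in 1 colour, with 1 array per population. All came from mouse pluripotent stem cells, labelled as embryonic stem cells, differentiated without leukemia inhibitory factor. PCB had CsAYTE, a cocktail of Cyclosporin A, EW7197 (against ALK5), Y27632 (against ROCK) and Trolox (against oxidation), at each medium change, sfPCB had none, with DMSO as the vehicle, and M+CM are described by the study as GFP+ cells differentiated from PCB, although their label names no agent. The methods name EMG7 cells, which carry GFP behind the αMHC promoter, and E14Tg2a cells, and the labels do not give the line of each array. They describe growth of sorted Flk1+ MPC on OP9 stromal feeder cells treated with mitomycin C or on gelatin. The paper reports that Flk1+ MPC were induced on gelatin and that PCB did not arise without feeder cells. The labels do not name the culture surface of each array. If the arrays followed the paper, feeder contact and the step from Flk1+ MPC to day 5.5 cannot be told apart. No population had a replicate, so no difference below has a test, and every fold describes these 4 RNA samples. In bulk RNA, fewer cells of a type and less RNA per cell cannot be told apart.

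Signals were those of the scanner software after background subtraction, scaled so that the 75th percentile was equal on all arrays. On each array 43020 spots were read, and the share well above background lay between 73.3% and 76.2%. Errors are the software's spot errors carried into the log2 ratio. They cover the spot and its background and not differences between cultures, and levels that differed by under 2 errors are given as not distinguished. The labels were set beside marker genes. All 5 cardiomyocyte markers (Tnnt2, Myh6, Myl7, Actn2, Nkx2-5) were at least 2-fold higher in PCB than in Flk1+ MPC and higher again in M+CM, and Kdr, which encodes Flk1, was 24858 in Flk1+ MPC against 2363 in PCB. Pdgfra was 9136 in PCB, 7237 in Flk1+ MPC, 3647 in sfPCB and 918 in M+CM. In sfPCB all 3 endothelial, all 3 blood and 7 of 8 stromal markers were at least 2-fold higher than in Flk1+ MPC.

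Cdkn2a and Cdkn2b, whose levels moved together over the 4 arrays, are neighbours on chromosome 4 of the mouse, and in the RefSeq annotation of GRCm38.p6 no gene lies between them. The windows before their start sites are shown because the results turn on this pair. Cdkn2a has 2 start sites 12427 bases apart, and the first lies 16413 bases from that of Cdkn2b. The outer site is known to give the transcript of ARF, and the inner that of the INK4 protein p16. The sequences are the 250 bases before each start, from RefSeq, all on the minus strand and written 5′ to 3′, and capitals mark GGGCGG, the core of the binding site of SP1, searched on both strands. They lie at chr4:89294620-89294869 for the outer start of Cdkn2a, chr4:89282193-89282442 for its inner start and chr4:89311033-89311282 for Cdkn2b.
Cdkn2a outer start: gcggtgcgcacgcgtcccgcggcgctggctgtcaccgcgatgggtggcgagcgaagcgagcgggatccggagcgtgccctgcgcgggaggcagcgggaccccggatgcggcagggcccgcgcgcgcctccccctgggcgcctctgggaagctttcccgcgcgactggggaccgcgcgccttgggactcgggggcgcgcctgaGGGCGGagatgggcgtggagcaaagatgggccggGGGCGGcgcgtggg
Cdkn2a inner start: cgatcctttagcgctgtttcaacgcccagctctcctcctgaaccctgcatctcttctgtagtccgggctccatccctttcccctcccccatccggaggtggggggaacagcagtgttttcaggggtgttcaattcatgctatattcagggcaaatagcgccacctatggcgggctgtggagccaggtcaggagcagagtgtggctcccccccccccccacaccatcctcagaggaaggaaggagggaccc
Cdkn2b start: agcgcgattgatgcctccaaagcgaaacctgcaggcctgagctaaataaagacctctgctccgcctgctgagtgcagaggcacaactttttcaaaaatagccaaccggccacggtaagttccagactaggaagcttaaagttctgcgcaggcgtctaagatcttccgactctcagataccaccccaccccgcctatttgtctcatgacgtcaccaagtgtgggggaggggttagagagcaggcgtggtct

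The window of the outer Cdkn2a start held 2 copies of GGGCGG, and those of the inner start and of Cdkn2b held 0. Among 32851 windows of this length in the table, 32.7% held at least 1 copy. The outer window was also rich in the dinucleotide CG, with 40 copies, a number reached by 1.31% of all windows, against 7 in the inner window and 12 in that of Cdkn2b. CAGAC, a SMAD binding motif, was present once in the Cdkn2b window and absent from both Cdkn2a windows, beside 42.2% of all windows that held it. Each match is a description of letters, and the files do not say which Cdkn2a transcript either probe reads. Of the other members, Cdkn1a and Cdkn1b had windows in the table, and Ccnd1, Ccnd2 and Cdkn1c did not.

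**Figure D1:**
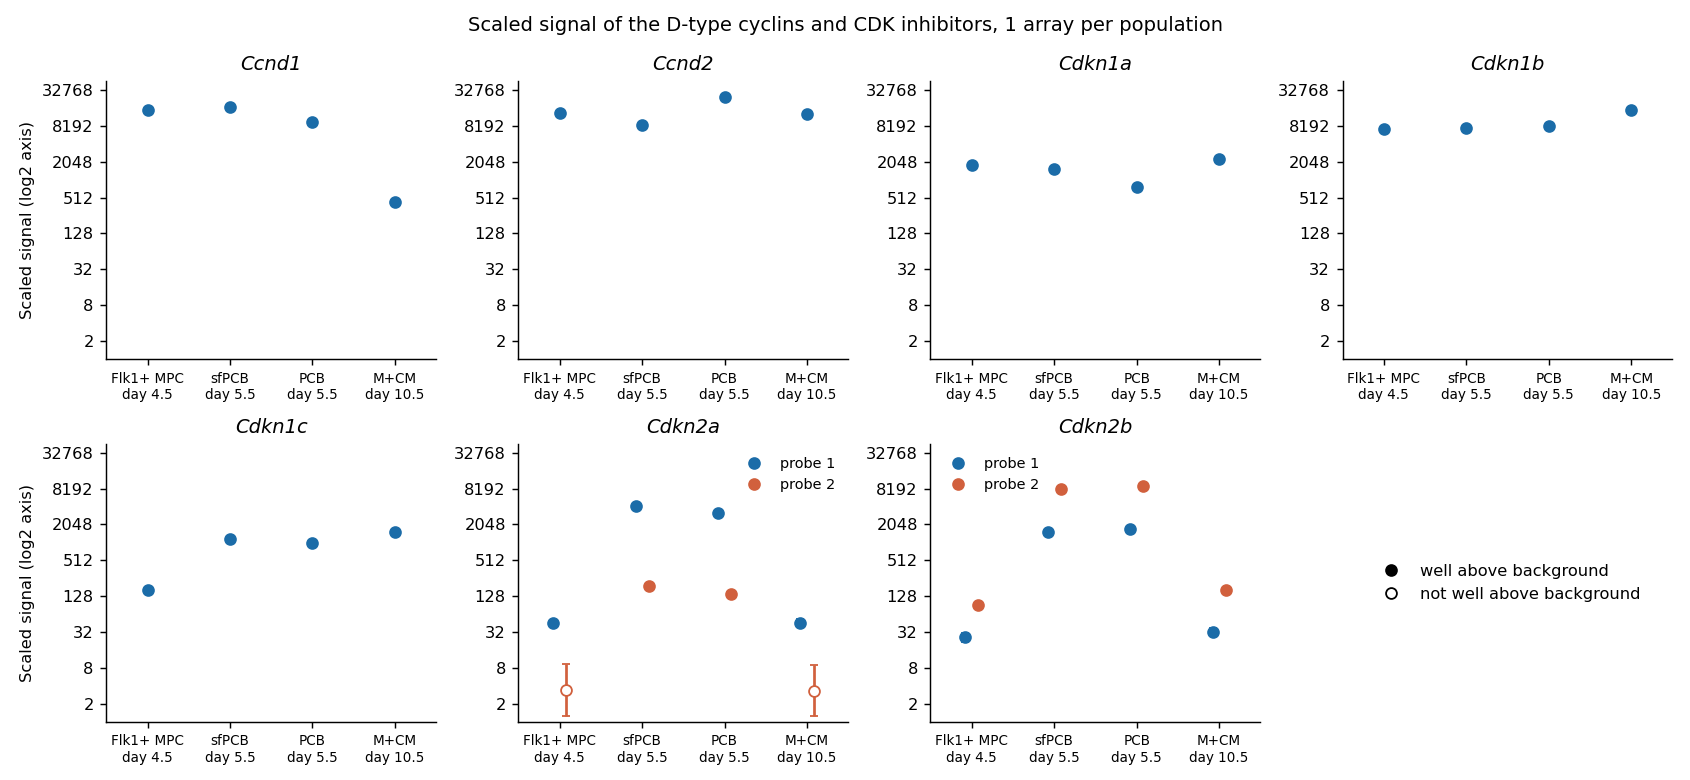
Scaled signal (log2 axis) of each gene in Flk1+ MPC, sfPCB, PCB and M+CM, 1 array each, with bars for the software's spot error and both probes shown for Cdkn2a and Cdkn2b. Ccnd1 was lowest in M+CM at 439, Cdkn1c was lowest in Flk1+ MPC at 160, and all probes of Cdkn2a and Cdkn2b were higher in sfPCB and PCB than in the other populations.

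Ccnd1, which encodes cyclin D1, was far lower in M+CM than in the 3 earlier populations. Its scaled signal was 15128 in Flk1+ MPC, 16714 in sfPCB, 9377 in PCB and 439 in M+CM. The first pair was not distinguished by the spot error, PCB lay below both, and M+CM stood apart. Against PCB the M+CM level was 21.4-fold lower (log2 -4.42, error 0.20), and 1.20% of the probes tested lay at least as far down. Against Flk1+ MPC it was 34.5-fold lower (log2 -5.11, error 0.20). PCB was 1.78-fold below sfPCB, a difference of -0.83 (error 0.20) on the log2 scale.

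Ccnd2, which encodes cyclin D2, had another order, with its highest level in PCB and no comparable loss in M+CM. Its signal was 13388 in Flk1+ MPC, 8351 in sfPCB, 24590 in PCB and 13089 in M+CM. Flk1+ MPC and M+CM were not distinguished, PCB was above all others and sfPCB below all others. Between the populations of the same day, PCB was 2.94-fold above sfPCB (log2 1.56, error 0.20), and 3.17% of probes lay as far up in this comparison. Ccnd3, the remaining D cyclin and not a member of the set, was 24677 in Flk1+ MPC, 42188 in sfPCB, 22275 in PCB and 39009 in M+CM, so its highest and lowest levels were 1.89-fold apart, although PCB lay past 2-fold below sfPCB when arrays were not scaled. Against PCB, Ccnd1 alone of the 3 D cyclins was over 2-fold lower in M+CM, except that Ccnd2 passed the limit without scaling (log2 -1.12).

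Cdkn1a encodes p21, the CIP/KIP inhibitor best known as a target of p53. Its signal was 1835 in Flk1+ MPC, 1530 in sfPCB, 773 in PCB and 2256 in M+CM, lowest in PCB and not distinguished between neighbours among the other 3. PCB was 2.37-fold below Flk1+ MPC (log2 -1.25, error 0.20) and 1.98-fold below sfPCB (log2 -0.98, error 0.20), and M+CM was 2.92-fold above PCB (log2 1.55, error 0.20). Its probe was spotted 10 times on each array. The lowest, median and highest spots were 1750, 1831 and 1940 in Flk1+ MPC, 1446, 1515 and 1684 in sfPCB, 735, 771 and 807 in PCB, and 2164, 2246 and 2360 in M+CM. The spots of the 4 arrays did not overlap, although repeated spots of 1 sample measure spotting and scanning alone. Another probe that the annotation gives to Cdkn1a, under the identifier NM_001111099 and outside the set, was noticed once its values were seen. It read 94.9 in Flk1+ MPC, 77.5 in sfPCB, 28.6 in PCB and 50.8 in M+CM. It too was lowest in PCB, and its M+CM level lay below those of Flk1+ MPC and sfPCB, unlike that of the member probe.

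**Figure D2:**
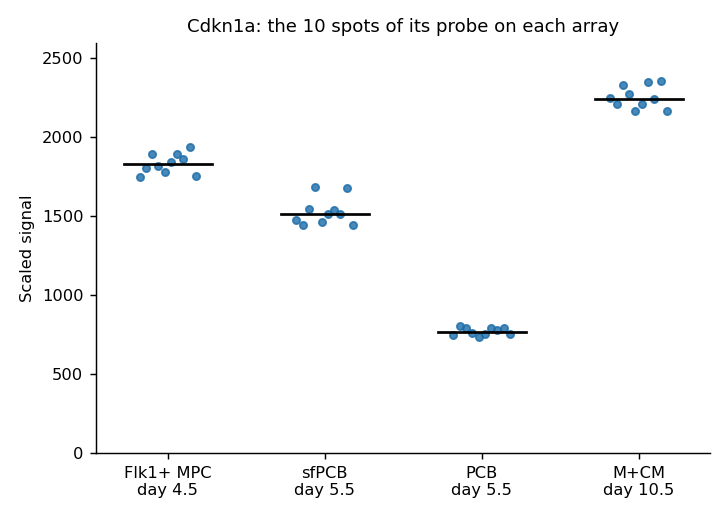
Scaled signal (linear axis) of the 10 spots of the Cdkn1a probe on each of the 4 arrays, with a bar at the median. The spots of PCB, between 735 and 807, lay below every spot of sfPCB, between 1446 and 1684.

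Cdkn1b, which encodes p27, an inhibitor that accumulates in cells that leave the cycle, was highest in M+CM. Its signal was 7397 in Flk1+ MPC, 7421 in sfPCB, 8009 in PCB and 15221 in M+CM. The 3 earlier populations were not distinguished from one another. M+CM stood 2.06-fold above Flk1+ MPC (log2 1.04, error 0.20) and 1.90-fold above PCB (log2 0.93, error 0.20), just inside and just outside the 2-fold limit used for counts. Such rises were common, since 21.7% of the probes tested lay at least as far up against Flk1+ MPC and 22.3% against PCB.

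Cdkn1c encodes p57, the imprinted member of the family, expressed from the maternal allele. Its signal was 160 in Flk1+ MPC, 1186 in sfPCB, 1017 in PCB and 1547 in M+CM. The level was low in the precursors alone, and neighbours among the other 3 populations were not distinguished. The highest of these, M+CM, was 1.52-fold above the lowest, PCB (log2 0.60, error 0.20). Against Flk1+ MPC it was 7.41-fold higher in sfPCB (log2 2.89, error 0.21), 6.36-fold higher in PCB (log2 2.67, error 0.21) and 9.67-fold higher in M+CM (log2 3.27, error 0.21). PCB and sfPCB, with and without CsAYTE, differed by -0.22 (error 0.20) on the log2 scale.

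The INK4 genes Cdkn2a and Cdkn2b were low in Flk1+ MPC and M+CM and high in both day 5.5 populations. Cdkn2b encodes p15, an inhibitor known to respond to TGF-beta. Its first probe read 26.1 in Flk1+ MPC, 1538 in sfPCB, 1702 in PCB and 32.1 in M+CM, and its second read 92.4, 7987, 9130 and 164 in the same order. Both probes gave one picture, with PCB 65.2-fold above Flk1+ MPC by the first and 98.8-fold by the second, and M+CM 52.9-fold and 55.7-fold below PCB. Between the 2 low populations, M+CM lay above Flk1+ MPC by 0.83 (error 0.21) on the log2 scale by the second probe and was not distinguished from it by the first. As the mean of the probes, PCB was 80.2-fold above Flk1+ MPC (log2 6.33, error 0.18), and 0.724% of probes lay as far up. The size depends on the background correction, since this log2 ratio was 4.88 and that of M+CM against PCB, -5.76, was -4.59 with normexp correction and an offset of 50, in the same directions.

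Cdkn2a gives rise to p16, an inhibitor of CDK4 and CDK6, and in another reading frame to ARF, which stabilizes p53 through MDM2. Which product its probes report is not known, so for Cdkn2a the name INK4 is that of the gene and not of a protein. Its first probe read 44.8 in Flk1+ MPC, 4161 in sfPCB, 3220 in PCB and 45.8 in M+CM. This placed sfPCB 92.9-fold and PCB 71.9-fold above Flk1+ MPC (log2 6.54 and 6.17, error 0.24 each) and M+CM 70.4-fold below PCB (log2 -6.14, error 0.23). The second probe was not well above background in Flk1+ MPC and M+CM, and read 192 in sfPCB and 140 in PCB. It therefore gives bounds, with sfPCB at least 12.0-fold and PCB at least 8.81-fold above Flk1+ MPC, and PCB at least 9.16-fold above M+CM, taken against the lowest signal called well above background on the dim array.

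The populations of day 5.5, with and without CsAYTE, differed by less than 2-fold in both INK4 genes. PCB against sfPCB was -0.41 (error 0.15) for Cdkn2a and 0.17 (error 0.14) for Cdkn2b on the log2 scale, as means of their probes. For both probes of Cdkn2b and the first probe of Cdkn2a, PCB and sfPCB were not distinguished. The second probe of Cdkn2a read 1.37-fold lower in PCB, a difference of 0.45 with an error of 0.21.

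Most markers of stromal cells were higher at day 5.5 than in Flk1+ MPC, as Cdkn2a and Cdkn2b were, but not all were lower in M+CM. The summed scaled signal of the 8 markers was 4150 in Flk1+ MPC, 285660 in sfPCB, 143466 in PCB and 22377 in M+CM. Of these, 7 of 8 were at least 2-fold higher in sfPCB than in Flk1+ MPC, and 6 of the 7 tested were higher in PCB. Thy1 was lower in both. In M+CM against PCB, 3 of 8 were higher (Postn, Lum, Dcn) and 3 lower (Col1a1, Col1a2, Pdgfrb). Against Flk1+ MPC, 5 of 8 were higher in M+CM and 2 lower. Col1a2, which encodes a chain of type I collagen, made up most of the sums of day 5.5. It was 780 in Flk1+ MPC, 175056 in sfPCB, 109298 in PCB and 18307 in M+CM. Between the day 5.5 populations, 6 of the 8 were at least 2-fold lower in PCB than in sfPCB, and 2, Col1a2 and Thy1, were within 2-fold. Lum, which encodes lumican, was 8782 in sfPCB and 30.2 in PCB, 291-fold lower, and Dcn, which encodes decorin, was 30.6-fold lower. Postn was 12883 in sfPCB and not well above background in PCB, at least 829-fold lower, and Postn, Lum and Dcn were not well above background in Flk1+ MPC. The part of stromal RNA in the Cdkn2a and Cdkn2b levels was not tested.

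**Figure D3:**
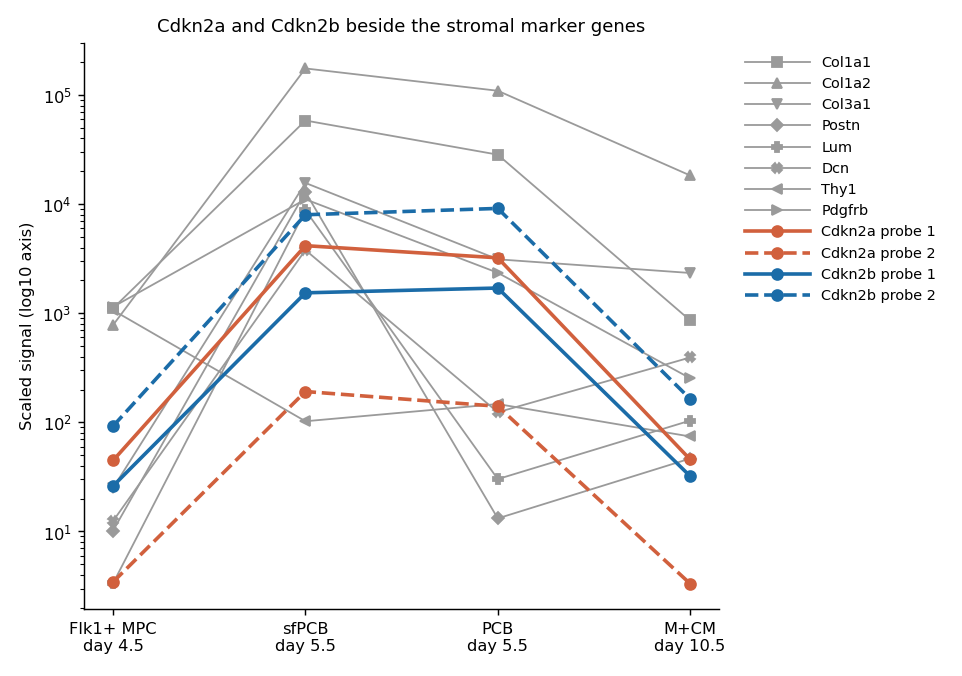
Scaled signal (log10 axis) of both probes of Cdkn2a and Cdkn2b (coloured) and of the 8 stromal marker genes (grey) in the 4 populations, 1 array each. All 4 INK4 probes were high in sfPCB and PCB, while Lum was 8782 in sfPCB and 30.2 in PCB and Col1a2 was 175056 and 109298.

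Of the INK4 genes outside the set, Cdkn2c, which encodes p18, was not well above background in Flk1+ MPC and read 375 in sfPCB, 456 in PCB and 83.6 in M+CM. It was at least 23.5-fold higher in sfPCB and at least 28.6-fold higher in PCB than in Flk1+ MPC, and 5.45-fold lower in M+CM than in PCB. Cdkn2d, which encodes p19, read 6093 in Flk1+ MPC, 6003 in sfPCB, 9218 in PCB and 18750 in M+CM. Its M+CM level was 2.03-fold above PCB and 3.08-fold above Flk1+ MPC, so the members of the INK4 family did not share an order.

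Counted at 2-fold, 3 of the 7 genes were higher in PCB than in Flk1+ MPC (Cdkn1c, Cdkn2a, Cdkn2b) and 1 lower (Cdkn1a), beside 12.8% and 12.1% of the 30811 probes tested, 24.9% either way. The same 3 were higher in sfPCB than in Flk1+ MPC and 0 lower, beside 13.1% and 12.6% of probes, 25.7% either way. Between PCB and sfPCB, 1 was higher in PCB (Ccnd2) and 0 lower, beside 6.13% and 7.36%, 13.5% either way. From PCB to M+CM, 1 was higher (Cdkn1a) and 3 lower (Ccnd1, Cdkn2a, Cdkn2b), beside 20.5% and 15.4%, 36% either way. In M+CM against Flk1+ MPC, 2 were higher (Cdkn1b, Cdkn1c) and 1 lower (Ccnd1), beside 22.4% and 21.9%, 44.3% either way. The median log2 ratio of the 7 genes was 0.88, 0.14, -0.22, -0.91 and 0.30 in these 5 comparisons in turn, and that of all probes tested was -0.20, -0.22, 0.03, 0.15 and -0.01. The comparisons share arrays, so their values are not independent of each other.

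**Figure D4:**
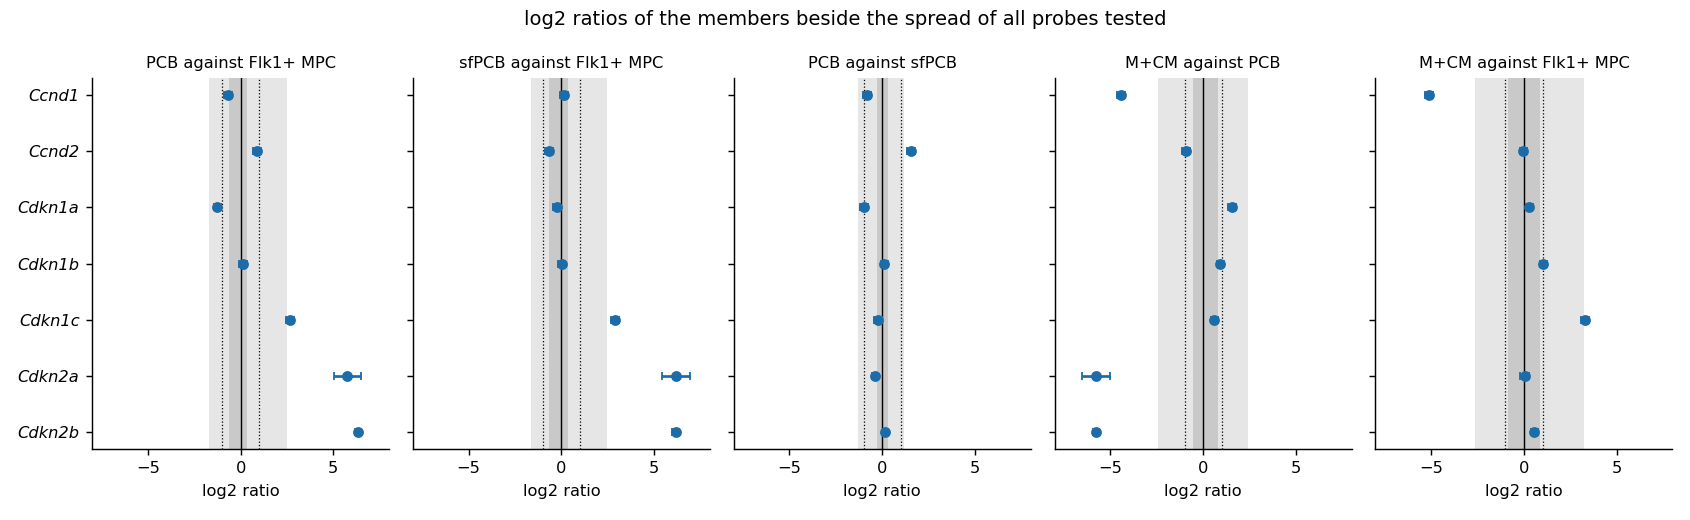
log2 ratio of each gene in the 5 comparisons, with bars for the spot error, dotted lines at 2-fold, and grey bands for the central 50 and 90 percent of all probes tested. Cdkn2a and Cdkn2b lay outside the wider band in both comparisons of a day 5.5 population with Flk1+ MPC and in M+CM against PCB. In those 3 comparisons the Cdkn2a point averages in a probe that was not well above background on the dimmer array, so its size is not firm. Ccnd1 lay outside the band in both comparisons of M+CM, Cdkn1c in all comparisons with Flk1+ MPC, and Ccnd2 in PCB against sfPCB.

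The partners and targets of the D cyclins in G1 were lower in M+CM for the most part. Of 19 genes, 12 were at least 2-fold lower and 2 higher in M+CM than in PCB, beside 15.4% and 20.5% of all probes. The median log2 ratio of the 19 was -1.54, against 0.15 over all probes. E2f1, an E2F activator of S phase genes, was 4000 in Flk1+ MPC, 2788 in sfPCB, 3047 in PCB and 373 in M+CM. Ccne1, which encodes cyclin E1, the partner of CDK2, was 3843, 1312, 2710 and 408 in the same order. E2f5, an E2F repressor, was 5398, 2541, 1984 and 729, so each of these 3 was lowest in M+CM. The 2 genes higher in M+CM were the pocket proteins Rb1 and Rbl2, and Rbl2 read 66.4, 86.8, 95.2 and 635. Their relative Rbl1 went the other way, 4.82-fold lower in M+CM than in PCB. Among the kinases, Cdk4 was 50587 in PCB and 15803 in M+CM, and Cdk6 stayed between 44.3 and 77.6 on all arrays. Between PCB and sfPCB, 1 of the 19 was higher (Ccne1, 2.07-fold) and 0 lower.

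Genes of S phase and mitosis were lower in M+CM without exception, in 10 of 10 genes against PCB (median log2 ratio -3.77) and in 10 of 10 against Flk1+ MPC (median -4.33). Of all probes, 15.4% and 21.9% were at least 2-fold lower in these comparisons. Bub1, a kinase of the spindle checkpoint, was 18899 in Flk1+ MPC, 6848 in sfPCB, 5923 in PCB and 327 in M+CM, and Top2a, a topoisomerase of dividing cells, was 13967, 9298, 9096 and 454. Mcm6, a subunit of the replicative helicase, was 142307, 82683, 68364 and 4659, and the mitotic kinase Plk1 was 58194, 44798, 36761 and 2508. All 4 were thus lowest in M+CM, as Ccnd1 was. Between PCB and sfPCB, 0 of the 10 differed by 2-fold. Cdkn2a and Cdkn2b were high on both arrays, so this comparison cannot relate them to these genes. Against Flk1+ MPC, 3 were lower in PCB (Mcm2, Mcm6, Bub1) and 0 higher, with a median log2 ratio of -0.61. In sfPCB, 1 was lower (Bub1) and 0 higher, with a median of -0.49. Of all probes, 12.1% and 12.6% were lower. A link to the INK4 levels was not tested.

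Genes of the ubiquitin ligases that remove CIP/KIP proteins, with the replication factors that act with them, were lower in M+CM in 4 of 5 cases. Of the 5 tested, 4 were at least 2-fold lower in M+CM than in PCB, namely Dtl, Cdt1, Cks1b and Pcna, beside 15.4% of all probes. Among the 3 earlier populations, 0 of 5 differed by 2-fold. Cul4a, which encodes the scaffold of the ligase that DTL joins, was 4527 in Flk1+ MPC, 5904 in sfPCB, 4643 in PCB and 6655 in M+CM, highest in M+CM. Dtl, the substrate receptor that directs the degradation of p21 at replicating DNA, was 8160 in Flk1+ MPC, 5740 in sfPCB, 7028 in PCB and 215 in M+CM. Cks1b, the cofactor for degradation of p27, was 49614, 43462, 49120 and 5623. Cdt1 was 85983, 55316, 52938 and 3654, and Pcna 97203, 67451, 73010 and 12640.

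Cdkn1a was lower in PCB beside other targets of p53. Of 15 genes, counting Trp53 itself, 8 were at least 2-fold lower and 0 higher in PCB than in Flk1+ MPC. Of all probes, 12.1% were lower and 12.8% higher. The count lower depended on the scaling of the arrays. Below the limit, Btg2 (1.88-fold), Plk2 (1.56-fold) and Phlda3 (1.28-fold) were higher in PCB. Against sfPCB, 5 of the 15 were lower (Ccng1, Bbc3, Pmaip1, Sesn2, Perp) and 0 higher, beside 7.36% and 6.13% of all probes. Their median log2 ratio in PCB against sfPCB was -0.62, against 0.03 over all probes. Perp, a desmosomal protein, had the order of Cdkn1a in part, at 5133 in Flk1+ MPC, 5072 in sfPCB, 700 in PCB and 6091 in M+CM. Ccng1, which encodes cyclin G1, likewise had its minimum in PCB, at 4463, 5547, 2100 and 10190. Others did not come back in M+CM. Pmaip1, which encodes the cell death protein NOXA, read 8741, 2254, 884 and 135, and Trp53 read 2296, 1332, 1112 and 375. In M+CM against PCB, 2 of the 15 were higher and 3 lower.

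Genes of the TGF-beta response, read beside Cdkn2b because CsAYTE holds an ALK5 inhibitor, were lower in PCB than in sfPCB, where Cdkn2b differed by 0.17 on the log2 scale. Of 6 genes, 4 were at least 2-fold lower in PCB than in sfPCB (Smad7, Skil, Ccn2, Tgfbi) and 0 higher, with a median log2 ratio of -1.47. Of all probes, 7.36% were lower and 6.13% higher. Tgfbi, a matrix protein induced by TGF-beta, was 3407 in Flk1+ MPC, 100726 in sfPCB, 21486 in PCB and 15063 in M+CM, and Smad7, an inhibitor in the same pathway, was 6165, 9168, 3145 and 2047. Tgif1, a corepressor of SMAD proteins, was 29458, 17978, 12662 and 2836. Tgfbi is also made by stromal cells, whose markers were lower in PCB than in sfPCB in 6 of 8 cases. The part of stromal RNA in the values of this list, Ccn2 among them, was not tested.

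Regulators of the Cdkn2a locus had no common direction. Among 11 Polycomb and T-box genes, 2 were at least 2-fold higher and 2 lower in PCB than in Flk1+ MPC. Of all probes, 12.8% were higher and 12.1% lower. In M+CM against PCB, 3 were higher and 1 lower, beside 20.5% and 15.4% of all probes. Such small counts were not tested against these shares. Tbx3, a T-box repressor of the locus, was 51182 in Flk1+ MPC, 7982 in sfPCB, 2768 in PCB and 10115 in M+CM. Its relative Tbx2 was 1009, 4822, 3111 and 13786, so the pair had opposite orders between Flk1+ MPC and the later populations. Ezh2, the methyltransferase of Polycomb complex PRC2, was 12871, 6966, 8295 and 1675, lowest in M+CM. A link between these regulators and the Cdkn2a level was not tested.

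Imprinted genes, read beside Cdkn1c, gave no common order. Of 10 tested, 5 were at least 2-fold higher and 3 lower in PCB than in Flk1+ MPC, and 5 were higher and 2 lower in sfPCB. Of all probes, 12.8% were higher and 12.1% lower in PCB, and 13.1% and 12.6% in sfPCB. Phlda2, a growth restraining gene of the same imprinted cluster as Cdkn1c, was 1945 in Flk1+ MPC, 594 in sfPCB and 192 in PCB and was not well above background in M+CM. Slc22a18, a transporter gene of that cluster, was 67.7, 292, 163 and 27.1. Kcnq1, a potassium channel gene of the cluster, was well above background in M+CM alone, at 47.2. Peg3, a gene of another region expressed from the paternal allele, was 7191, 5597, 3121 and 773. Phlda2, Slc22a18 and Peg3 did not have the order of Cdkn1c, and that of Kcnq1 is unknown below M+CM. Plagl1, an imprinted transcription factor, was 743 in Flk1+ MPC, 3554 in sfPCB, 2567 in PCB and 4733 in M+CM, lowest in Flk1+ MPC as Cdkn1c was. Igf2, at 86.8, 394, 267 and 311 in the same order, was lowest there too, as were Dlk1, Meg3 and Grb10. Mest and Igf2r were lowest in M+CM.

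**Figure D5:**
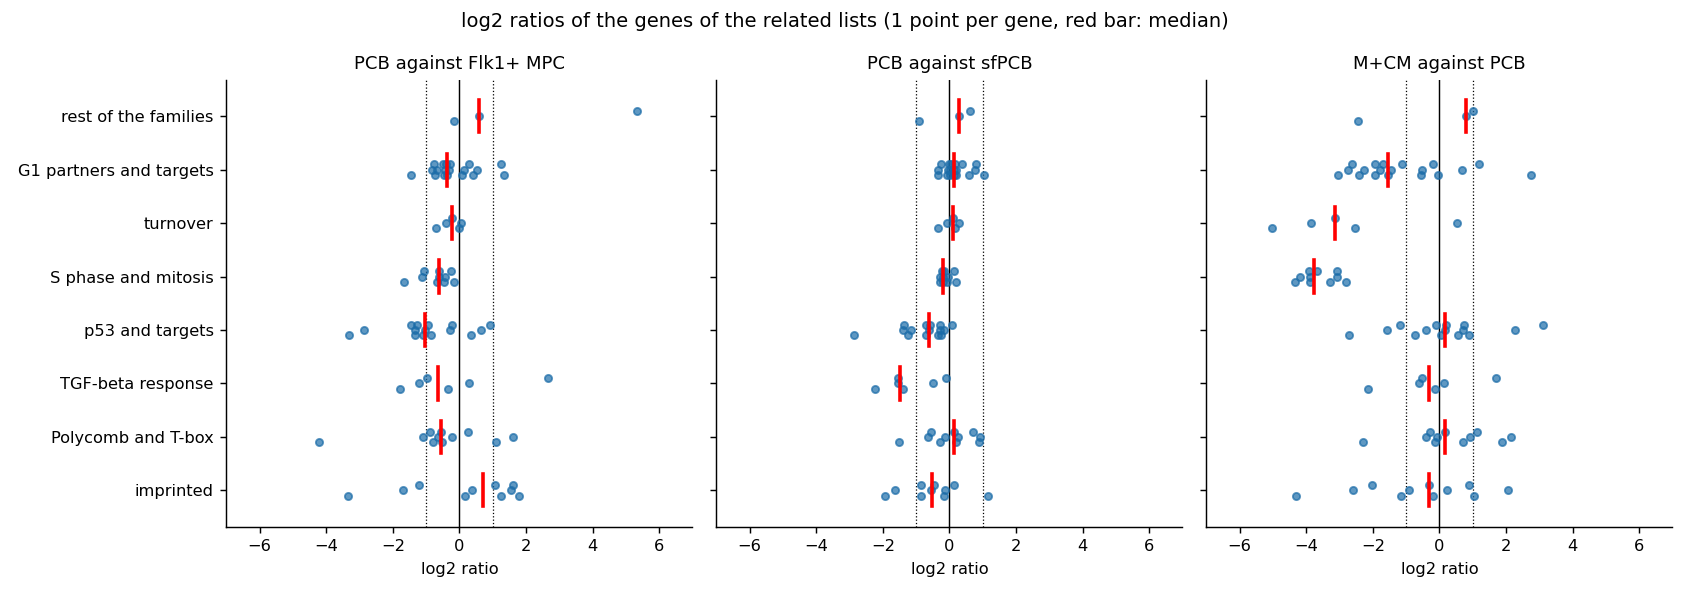
log2 ratio of every gene tested in 8 lists related to the D cyclins and CDK inhibitors, in 3 comparisons, with dotted lines at 2-fold and a red bar at each list's median. The S phase and mitosis genes had a median of -0.61 in PCB against Flk1+ MPC and of -3.77 in M+CM against PCB, and the TGF-beta genes had a median of -1.47 in PCB against sfPCB.

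Likeness of pattern was measured as the root mean square distance between log2 profiles over the 4 arrays, each centred on its mean, among 19121 probes of curated transcripts well above background throughout. With 4 points a small distance is common, and it is a description alone. Among the 7 genes the closest pair was Cdkn2a and Cdkn2b, at 0.33, and the next was Cdkn1a and Cdkn1b, at 0.52. Cdkn2b was also the closest of all candidates to Cdkn2a (0.34 by its first probe), followed by Ptgs1 (0.35), which read 166 in Flk1+ MPC, 8707 in sfPCB, 11777 in PCB and 166 in M+CM. The nearest to Cdkn2b were Serpinf1 (0.20) and Ptgs1 (0.22). For Ccnd1 the nearest were C77080 (0.079) and Lpar2 (0.13), and for Ccnd2 Dpf3 (0.13) and 1700011L22Rik (0.15). For the CIP/KIP genes they were Ttc39a (0.024) and Psg21 (0.052) beside Cdkn1a, Mpv17 (0.018) and Tpsb2 (0.019) beside Cdkn1b, and Cmbl (0.082) and Socs3 (0.099) beside Cdkn1c.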

How the data were processed

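RNA was measured on 1-colour Agilent arrays, 1 per population, grouped by the sample labels. The authors deposited spot intensity from Feature Extraction 11.5.1.1 (background-subtracted processed signal, its error, median spot and background signals, flags), not normalized between arrays, and a table of log2 values that the authors' files show to be the log2 of the unscaled processed signal. File headers annotate the design on mm9. Controls and 87 to 144 flagged spots per array were dropped, and arrays were scaled to a common 75th percentile of 2198. Spots of a repeated probe were averaged as log2 values. A probe was well above background when the software said so for at least 0.5 of its spots, and it was tested in a comparison when this held in at least 1 of its arrays. A call was a difference of at least 2-fold, with no test. Members and lists were chosen with earlier results of these data known. From each list up to 4 genes at least 4-fold different between any populations were named, with Ccnd3, Cdkn2c and Cdkn2d in all cases, and genes named beyond this were chosen after their values were seen. Symbols came from RefSeq (GRCm38.p6), by which 27507 probes matched, and Skp2 and H19 matched none. A gene of the TGF-beta list is not reported here and enters none of its counts. Counting was tested on simulated arrays. Python 3.11.15, numpy 2.4.6, pandas 2.3.3, matplotlib 3.10.9 and R 4.3.3 with limma 3.58.1 (quantile, normexp) were used, with 9 alternatives.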

Additional observations from a re-analysis of the deposited data

How the results depend on the processing

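With 1 array per population nothing bounds the difference between cultures, no array could be left out, and depth is known only as signal over background, with a lowest signal called well above background between 15.1 and 15.9. No paired analysis was possible because each population had 1 array. The counts of members past 2-fold stayed within 1.5 times their value in 43 of 45 settings. The count in PCB against sfPCB was 2 under quantile normalization and 2 without scaling, in place of 1, because Cdkn1a passed the limit (log2 -1.01 and -1.14). Ccnd2 in PCB against Flk1+ MPC, 0.88, became 1.06 under both, Cdkn1b in M+CM against PCB, 0.93, became 1.01 under quantile normalization, and Ccnd2 in M+CM against PCB, -0.91, became -1.12 without scaling. Of 315 log2 ratios recomputed, 270 moved by less than their error and 0 of those past 2-fold turned sign. Over the settings Cdkn2b ranged from 4.88 to 6.63 in PCB against Flk1+ MPC and from -5.97 to -4.59 in M+CM against PCB. Cdkn2a ranged from 3.12 to 6.17 and from -6.14 to -3.17, and the ends at 6.17 and -6.14 came from its first probe alone. Its probe mean has no firm size because 1 of its probes was not well above background in Flk1+ MPC and M+CM. Without scaling, the median of all probes in sfPCB against Flk1+ MPC went from -0.22 to 0.11, and 17.6% of probes were higher and 7.28% lower in place of 13.1% and 12.6%. In PCB against Flk1+ MPC the split became 15.0% and 9.17%, and in M+CM against PCB 16.2% and 19.4%. With normexp, 14.4% of probes passed 2-fold in PCB against Flk1+ MPC in place of 24.9%. Without scaling or with the percentile taken over probes well above background on all arrays, 6 of the 15 genes of the p53 list were lower and 1 higher in PCB than in Flk1+ MPC.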
